A study of Mus musculus with 60 samples.

Results

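The LEF/TCF factors Lef1, Tcf7, Tcf7l1 and Tcf7l2, the Wnt target genes Axin2, Sp5 and T, and the ligand gene Wnt6 make up 8 of the 55487 genes counted in mouse embryonic stem cells (mESCs) whose recycling of parental histones was disturbed. The 8 genes were matched by symbol to their Ensembl rows and were followed through all 20 groups of libraries. They were selected on their RNA levels in these same libraries, with earlier results known, so their own values stand here as a description without p-values. Calls of these genes, and counts of them at an unadjusted p, follow the rules used for all features, and nothing is read from them. A further 95 genes of the Wnt pathway, grouped by role, were tested beside them. That list was also chosen with earlier results of these data known, so its p-values are not independent tests.

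All cells were E14JU mESCs in which POLE4, a subunit of the leading strand DNA polymerase that hands parental histones to the new strand, carries a dTAG degron. The WT background was 1 POLE4-dTAG clone, and the MCM2-2A background was 1 POLE4-dTAG/MCM2-2A clone, whose MCM2 helicase subunit carries a mutation of its histone-binding part, so that clone and mutation cannot be told apart. Cells of either line received DMSO (Ctrl, Ctrl MCM2-2A) or 1 µM dTAG (dPOLE4, dPOLE4 MCM2-2A) for 24 h in medium with serum and LIF and were collected (T0), or were then moved to retinoic acid (RA) without LIF and collected at T12, T24 and T60, taken here as 12, 24 and 60 h of RA. In a second experiment the same 4 kinds of cells were collected after 96 h of DMSO or dTAG. Each group had 3 libraries. The study's methods call the RNA-seq libraries of a group biological replicates, and the labels do not say how the cultures were separated. The errors given measure the spread between these libraries.

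Wnt ligands bind Frizzled receptors and LRP co-receptors and keep β-catenin from being destroyed. β-catenin then enters the nucleus and binds the LEF/TCF factors, which sit on DNA with or without it. Tcf7l1 acts mostly as a repressor and restrains naive pluripotency genes in mESCs, Tcf7 and Lef1 act mostly with β-catenin as activators, and Tcf7l2 can do either. Axin2 encodes a scaffold of the complex that destroys β-catenin and is a feedback target in many tissues. Sp5 encodes a zinc finger factor induced by Wnt signalling, T encodes Brachyury, the T-box factor of the primitive streak and early mesoderm, and Wnt6 encodes a secreted ligand known from epithelia and extraembryonic endoderm.

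The promoters of the target genes are shown because LEF/TCF factors bind DNA at sites such as CTTTGA. Only this form of 6 letters was searched, so other forms of the site are neither marked nor counted. Windows of 300 bases, from 250 before to 50 after each annotated start, came from RefSeq on GRCm38.p6, and all 8 genes matched, with 13 windows in all. Lower case is used throughout, with matches to CTTTGA, or to TCAAAG where the match lay on the other strand, in capitals. The Sp5 window (chr2:70474673-70474972, + strand) held 2 forward matches, beginning 204 and 104 bases before the start. The T window (chr17:8434173-8434472, + strand) held 1 match on the other strand, 234 bases before the start, and the Axin2 window (chr11:108920099-108920398, + strand) held 0.
Sp5: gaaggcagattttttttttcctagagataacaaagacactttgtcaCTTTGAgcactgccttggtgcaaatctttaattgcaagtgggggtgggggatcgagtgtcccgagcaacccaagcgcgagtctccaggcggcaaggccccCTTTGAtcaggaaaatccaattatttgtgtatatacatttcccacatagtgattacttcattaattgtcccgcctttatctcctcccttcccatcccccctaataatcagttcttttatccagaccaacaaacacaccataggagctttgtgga
T: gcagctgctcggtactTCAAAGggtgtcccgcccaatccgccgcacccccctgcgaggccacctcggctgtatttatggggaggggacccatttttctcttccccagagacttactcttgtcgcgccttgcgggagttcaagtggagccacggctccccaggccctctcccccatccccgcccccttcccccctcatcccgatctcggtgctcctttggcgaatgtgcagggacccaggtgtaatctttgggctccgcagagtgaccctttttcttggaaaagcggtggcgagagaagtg
Axin2: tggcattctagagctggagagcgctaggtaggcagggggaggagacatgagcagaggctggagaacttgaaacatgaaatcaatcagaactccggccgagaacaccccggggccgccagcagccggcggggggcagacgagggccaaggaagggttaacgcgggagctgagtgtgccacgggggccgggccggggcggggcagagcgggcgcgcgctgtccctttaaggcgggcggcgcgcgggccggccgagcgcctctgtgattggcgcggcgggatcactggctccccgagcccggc
One of the 4 windows of Lef1 held 2 matches on the other strand, and the windows of Tcf7, Tcf7l1, Tcf7l2 and Wnt6 held 0. In all, 3 of 13 windows of the 8 genes (23.1%), 9 of 75 windows of the other pathway genes (12%) and 5257 of all 32851 windows (16%) had a match. A match is a run of letters and not a measured binding site.

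Sequencing depth, as the sum of counts, ran from 10461077 to 46609151 over the 48 libraries with RA and their T0 controls, and from 7126100 to 23598266 over the 12 others. Levels are CPM, the count of a gene scaled to a common library size after TMM normalization. A log2 fold change is given with a standard error (SE) derived from edgeR's F test. It is the size of the log2 fold change divided by the square root of F. Calling a feature took an adjusted p under 0.01 together with a log2 fold change beyond 0.58 in either direction. Pole4 RNA was 52.4 CPM in both Ctrl and dPOLE4 at T0, as dTAG acts on the protein and not on the RNA, so that RNA does not check the depletion. Mcm2 RNA was 497 CPM in Ctrl T0 and 311 CPM in Ctrl MCM2-2A T0. Summed markers of pluripotency (Pou5f1, Sox2, Nanog, Zfp42, Esrrb, Dppa5a) lay between 3161 and 3263 CPM in Ctrl T0 and between 256 and 337 CPM in Ctrl T60. Fibroblast markers (Col1a1, Col1a2, Col3a1, Thy1, Pdgfrb) lay between 51 and 65 CPM in Ctrl T0 and between 399 and 544 CPM in Ctrl T60, trophectoderm markers (Cdx2, Eomes, Elf5, Gata3, Hand1) between 41.5 and 47.2 and between 81.5 and 99.7 CPM, respectively. In these bulk libraries, fewer cells of a type and less RNA per cell cannot be told apart.

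The gene models lie on mm10 at chr3:131110471-131224356 for Lef1 (ENSMUSG00000027985), chr11:52252371-52283014 for Tcf7 (ENSMUSG00000000782), chr6:72626378-72789254 for Tcf7l1 (ENSMUSG00000055799) and chr19:55741820-55933654 for Tcf7l2 (ENSMUSG00000024985). Those of the targets lie at chr11:108920349-108950783 for Axin2 (ENSMUSG00000000142), chr2:70474923-70477729 for Sp5 (ENSMUSG00000075304) and chr17:8434423-8442496 for T (ENSMUSG00000062327), and Wnt6 (ENSMUSG00000033227) lies at chr1:74771892-74785322. Counts cover exons. Annotated genes overlap all but Sp5 and T, and how reads shared with them were counted is uncertain. Summed over all libraries, the genes overlapping Lef1 held 150 (Gm42449, same strand) and 98 (Gm43352, other strand) counts beside 15638 for Lef1, and the fullest overlap, Gm37969 on the strand of Tcf7l1, held 2723 beside 137965.

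Per kilobase of exon, Tcf7l1 and Tcf7 made up most of the LEF/TCF RNA in every group. In Ctrl T0, Tcf7l1 held 52.1% and Tcf7 40.4% of the summed CPM per kb of the 4 genes, Lef1 held 4.06% and Tcf7l2 3.44%. By Ctrl T24 the order of the leading pair had turned, with 53.6% Tcf7 and 38.4% Tcf7l1, and at Ctrl T60 Tcf7l2 reached 6.14%. The same turn was seen in Ctrl MCM2-2A, from 58.0% Tcf7l1 and 36.3% Tcf7 at T0 to 41.7% and 52.5% at T24. The share of Lef1 ranged from 4.06% ± 0.718 in Ctrl T0 to 0.49% ± 0.15 in dPOLE4 MCM2-2A T24 (SD, n = 3 each). The summed level of the 4 genes lay between 44.1 and 68.1 CPM per kb in the 24 h and RA experiment and between 54.1 and 84.5 CPM per kb at 96 h.

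**Figure D1:**
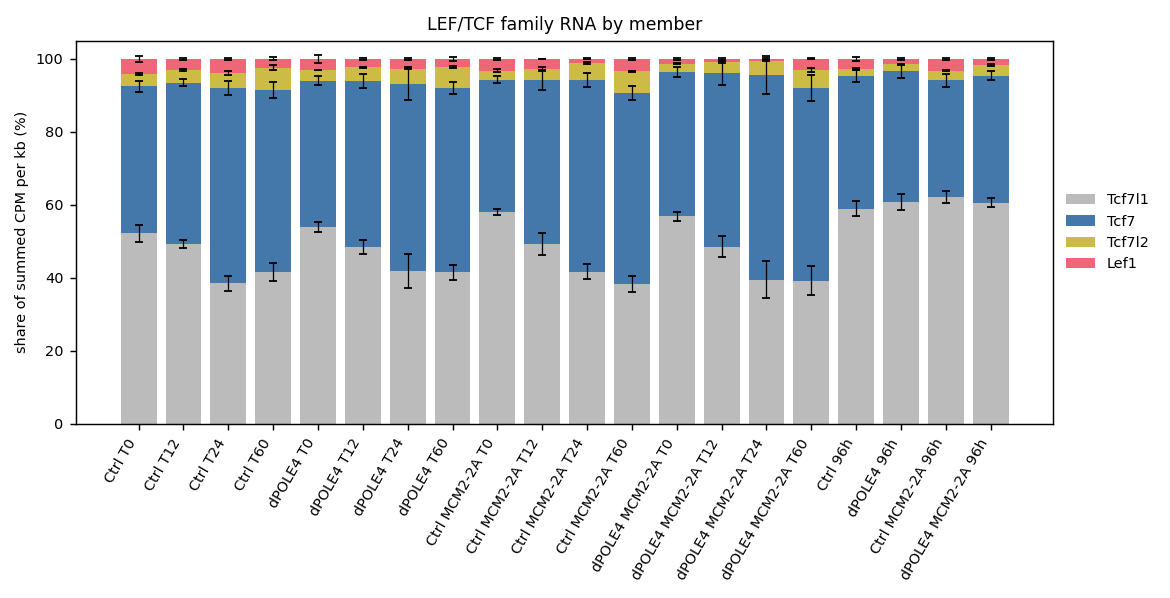
Share of each LEF/TCF factor in the summed CPM per kb of exon of the 4 genes (y axis, percent, from 0) in each of the 20 groups (x axis), as stacked bars of the mean of 3 libraries with SD bars at the top of each segment. Tcf7l1 (grey) and Tcf7 (blue) fill most of each bar, and the Lef1 segment (red) at the top narrows from 4.06% in Ctrl T0 to 0.49% in dPOLE4 MCM2-2A T24.

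Among the 16 groups of the 24 h and RA experiment, the highest group mean stood 11.5 times above the lowest for Lef1, 1.62 times for Tcf7, 1.96 times for Tcf7l1 and 3.3 times for Tcf7l2. The targets Sp5 and T covered far wider ranges, of 69.3 and 98 times, while Axin2 covered 3.11 times and Wnt6 22 times. When the 16 groups were put in order of their means, neighbours in that order overlapped in most cases. For Lef1, 3 of the 15 neighbouring pairs did not overlap, and these set apart 4 groups at the bottom, namely dPOLE4 MCM2-2A T0, Ctrl MCM2-2A T24, dPOLE4 MCM2-2A T12 and dPOLE4 MCM2-2A T24. For Tcf7l1, 0 of 15 neighbouring pairs were separate. For Tcf7l2, the 4 T60 groups had the highest means, in the order Ctrl, dPOLE4, Ctrl MCM2-2A, dPOLE4 MCM2-2A, with the upper pair overlapping. The lowest of them, dPOLE4 MCM2-2A T60 (from 20.9 CPM), also overlapped Ctrl T12 (up to 21.4 CPM) and Ctrl T24 (up to 21.7 CPM). For Axin2 the T60 groups also had the highest means, with 2 of 15 pairs separate. The dPOLE4 T0 libraries, reaching 65.0 CPM, overlapped dPOLE4 (from 63.8 CPM), Ctrl MCM2-2A (from 64.1 CPM) and dPOLE4 MCM2-2A (from 63.5 CPM) at T60. Among the 4 groups of 96 h, all 3 neighbouring pairs were separate for Wnt6, 2 for Lef1, Tcf7 and T, 1 for Tcf7l1 and Sp5, and 0 for Tcf7l2 and Axin2. The share of all features with separate groups was not counted. Among the other pathway genes, dPOLE4 and Ctrl at T0 did not overlap for 16 of 81. In the MCM2-2A background at T24, this held for 33 of 90. A lack of overlap between groups of 3 libraries is therefore given only as a description.

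**Figure D2:**
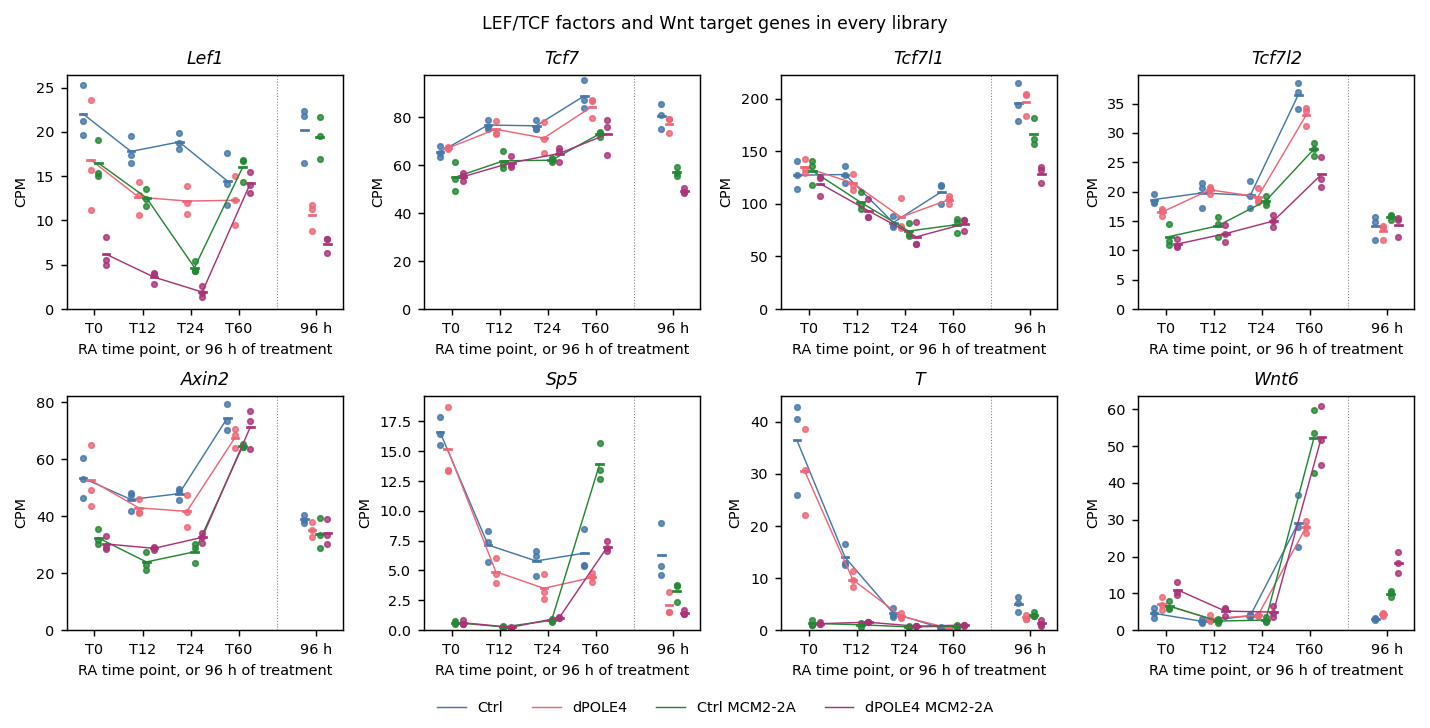
Levels in CPM (y axis, linear from 0) of the 8 genes in every library at T0, T12, T24 and T60 of RA and, right of the dotted line, after 96 h of treatment (x axis). Points are libraries, short bars the means of 3 and thin lines join the means of the RA experiment. Lef1 is lowest in dPOLE4 MCM2-2A at T24, Sp5 and T are near 0 in both MCM2-2A groups at T0, and Wnt6 is highest at T60.

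Depletion of POLE4 in the WT background was compared at each time, to ask what losing this pathway alone does to the RNA. Lef1 had the most regular difference of the 8 genes. At T12 its level was 19.5, 17.4 and 16.4 CPM in the Ctrl libraries and 14.4, 10.6 and 12.9 CPM in the dPOLE4 libraries (log2 fold change -0.51, SE 0.12). Every dPOLE4 library lay below every Ctrl library. At T24 the levels were 19.8, 18.7 and 18.0 CPM in Ctrl and 13.9, 12 and 10.7 CPM in dPOLE4 (-0.62, SE 0.10), again without overlap. At T0 the dPOLE4 libraries spread from 11.2 to 23.6 CPM and overlapped Ctrl (-0.41, SE 0.20), as they did at T60 (-0.26, SE 0.16). After 96 h the Ctrl libraries had 16.5, 21.8 and 22.3 CPM and the dPOLE4 libraries 8.85, 11.7 and 11.3 CPM (-0.91, SE 0.14), and the groups were apart.

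The other 3 LEF/TCF factors showed little difference between dPOLE4 and Ctrl. Log2 fold changes of Tcf7 lay between -0.10 and 0.02, those of Tcf7l1 between -0.09 and 0.09 and those of Tcf7l2 between -0.18 and 0.05 over the 5 comparisons. Of these values only Tcf7l2 at T0 came from groups that did not overlap. Axin2 also stayed near Ctrl, between -0.19 and -0.03.

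Sp5 was lower in dPOLE4, most of all at 96 h. At T60 it was 8.51, 5.39 and 5.47 CPM in Ctrl and 4.80, 3.99 and 4.45 CPM in dPOLE4 (log2 fold change -0.58, SE 0.19), and at T0 to T24 the groups overlapped. The Ctrl libraries of 96 h had 9.01, 4.62 and 5.35 CPM, and the dPOLE4 libraries had 1.53, 1.54 and 3.22 CPM (-1.58, SE 0.32). One Ctrl library stood well above the other two, and the lowest Ctrl library was still above the highest dPOLE4 library. T behaved likewise at 96 h, with 6.31, 5.23 and 3.58 CPM in Ctrl and 2.93, 2.16 and 2.2 CPM in dPOLE4 (-1.05, SE 0.24). At T12, T was 16.5, 12.9 and 12.5 CPM in Ctrl and 11.3, 9.55 and 8.22 CPM in dPOLE4 (-0.55, SE 0.14). At T60, T had 3 to 6 counts per Ctrl library and did not pass the filter on low counts. Wnt6 went the other way at 96 h, from 3.30, 3.06 and 2.67 CPM in Ctrl to 4.65, 4.37 and 3.97 CPM in dPOLE4 (0.53, SE 0.18), and its groups overlapped at T0 to T60.

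None of the 8 genes was called in the WT background by edgeR, where the percentage of all tested features that was called was 0 at T0, 0 at T12, 0 at T24, 0.193 at T60 and 0 at 96 h. At an unadjusted p under 0.05 edgeR counted 2, 3, 2, 1 and 4 of them in that order of times, and DESeq2 called 0, 0, 1, 0 and 2. Among all features tested, 2069 of 17792, 1150 of 17914, 1451 of 19093, 2446 of 17116 and 2164 of 17580 had such a p. Of all features, DESeq2 called 0 of 6256, 2 of 10974, 15 of 13139, 38 of 14143 and 25 of 14537. At T0 and 96 h the replicate numbers paired the libraries. With the pair as a block, 0 of the 8 were called at T0, and Lef1 (-0.92), Sp5 (-1.53) and T (-1.03) were called at 96 h. That blocked fit called 6 of 17792 features at T0 and 142 of 17580 at 96 h. Among the 95 other pathway genes, 0 of the 81, 84, 88, 83 and 82 tested at T0, T12, T24, T60 and 96 h were called by edgeR, with 12, 10, 16, 27 and 13 at an unadjusted p under 0.05, and DESeq2 called 0, 0, 1, 1 and 0. Their median log2 fold change lay between -0.02 and 0.02, as did that of all features. With the block at 96 h, the ligand gene Wnt5a fell (-1.08, edgeR adjusted p = 0.000518 in the blocked fit).

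Depletion of POLE4 in the MCM2-2A background was compared in the same way, to ask what follows when both pathways of histone recycling are disturbed. Here Lef1 was lower at T0, T12, T24 and 96 h, and near its control at T60. At T0 the Ctrl MCM2-2A libraries had 19.1, 15.4 and 15.0 CPM of Lef1 and the dPOLE4 MCM2-2A libraries had 8.12, 5.53 and 4.91 CPM (log2 fold change -1.43, SE 0.17). At T12 the values were 12.4, 11.7 and 13.6 CPM against 2.85, 3.91 and 4.03 CPM (-1.78, SE 0.14), the largest log2 fold change in size of the 5 comparisons. Control levels of Lef1 were themselves low at T24, with 4.33, 5.47 and 4.24 CPM, and those after depletion were 1.33, 2.62 and 1.82 CPM (-1.35, SE 0.22). In all 3 comparisons the groups stood apart. At T60 Lef1 was back at 14.4, 16.7 and 16.9 CPM in Ctrl MCM2-2A and 13.1, 15.5 and 14 CPM in dPOLE4 MCM2-2A (-0.17, SE 0.11), and the groups overlapped. After 96 h it was 19.5, 21.7 and 17.0 CPM against 7.87, 7.94 and 6.34 CPM (-1.38, SE 0.15), with no overlap.

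When 1 library was left out, the call of Lef1 was lost in 5 of 6 fits at T0, 3 of 6 at T24 and 3 of 6 at 96 h. Its log2 fold change stayed between -1.5 and -1.25 at T0 in the fits that lost it, namely those without 1 of the 3 Ctrl MCM2-2A libraries or without replicate 2 or 3 of dPOLE4 MCM2-2A. It was lost at T24 without replicate 1 (-1.41) or 2 (-1.20) of Ctrl MCM2-2A or replicate 1 of dPOLE4 MCM2-2A (-1.13). At 96 h it was lost without replicate 3 of Ctrl MCM2-2A (-1.48) or replicate 2 (-1.43) or 3 (-1.29) of dPOLE4 MCM2-2A. Calls among all features fell in these same fits. They went from 13 to 2, 0, 3, 0 and 6 at T0, in the order the fits are listed. At T24 they went from 188 to 102, 87 and 161, and at 96 h from 53 to 0, 6 and 2.

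Tcf7, Tcf7l1 and Tcf7l2 differed less from their controls at T0 to T60 in this background. Their log2 fold changes at T0 to T60 lay between -0.02 and 0.07 for Tcf7, between -0.13 and 0.01 for Tcf7l1 and between -0.29 and -0.14 for Tcf7l2. Tcf7l2 was 18.3, 17.8 and 19.2 CPM in Ctrl MCM2-2A and 15, 16 and 13.9 CPM in dPOLE4 MCM2-2A at T24, and 27.3, 26.1 and 28.3 CPM against 20.9, 22.1 and 25.8 CPM at T60, and at both times the groups stood apart. At 96 h, Tcf7 was 55.4, 56.9 and 59.2 CPM in Ctrl MCM2-2A and 48.5, 49.0 and 50.6 CPM in dPOLE4 MCM2-2A (-0.21, SE 0.08). Tcf7l1 was 157, 181 and 162 CPM against 119, 135 and 132 CPM (-0.37, SE 0.08). Both pairs of groups of 96 h stood apart, and both differences are below the size needed for a call.

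Sp5 was near 0 in both MCM2-2A groups at T0 to T24, and at T24 the dPOLE4 MCM2-2A libraries (0.985, 1.11 and 1.04 CPM) lay just above those of Ctrl MCM2-2A (0.95, 0.713 and 0.8 CPM; 0.36, SE 0.29). At T60 the direction was the opposite. There the Ctrl MCM2-2A libraries had 13.5, 12.6 and 15.7 CPM and the dPOLE4 MCM2-2A libraries 7.44, 6.91 and 6.60 CPM (log2 fold change -0.99, SE 0.12). The ranges were far apart. After 96 h Sp5 was 2.36, 3.79 and 3.71 CPM against 1.39, 1.69 and 1.35 CPM (-1.19, SE 0.24), and T was 2.77, 3.48 and 2.72 CPM against 0.756, 1.23 and 1.94 CPM (-1.24, SE 0.31). Axin2 was slightly higher after depletion at T12 (0.27, SE 0.09) and T24 (0.24, SE 0.09) in groups that did not overlap.

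Wnt6 was higher after POLE4 depletion at every time but T60. At T0 its level was 7.99, 5.66 and 5.97 CPM in Ctrl MCM2-2A and 13.0, 10.3 and 9.63 CPM in dPOLE4 MCM2-2A (log2 fold change 0.74, SE 0.16). At T12 it was 2.51, 1.84 and 3.05 CPM against 5.98, 5.80 and 3.71 CPM (1.06, SE 0.23), and at T24 2.49, 3.45 and 2.24 CPM against 4.67, 6.48 and 3.59 CPM (0.77, SE 0.23). At T60 it was 42.7, 59.9 and 53.6 CPM against 51.7, 60.8 and 44.8 CPM (0.01, SE 0.13). The T0, T12 and T24 groups were apart and the T60 groups overlapped. At 96 h the levels were 9.01, 10.6 and 10.2 CPM against 15.5, 18.2 and 21.3 CPM (0.87, SE 0.14).

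In this background edgeR called 1 of the tested genes among the 8 in each comparison, Lef1 at T0, T12, T24 and 96 h and Sp5 at T60. The percentage called among all features was 0.0715 at T0, 0.404 at T12, 1.02 at T24, 2.25 at T60 and 0.304 at 96 h. Sp5 did not pass the filter at T12. The replicate numbers paired the libraries at T0 and 96 h, and the blocked fit also called Wnt6 at T0 (0.74) and Sp5 (-1.15), T (-1.20) and Wnt6 (0.89) at 96 h. Of all features, that fit called 143 of 18171 at T0 and 307 of 17421 at 96 h.

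**Figure D3:**
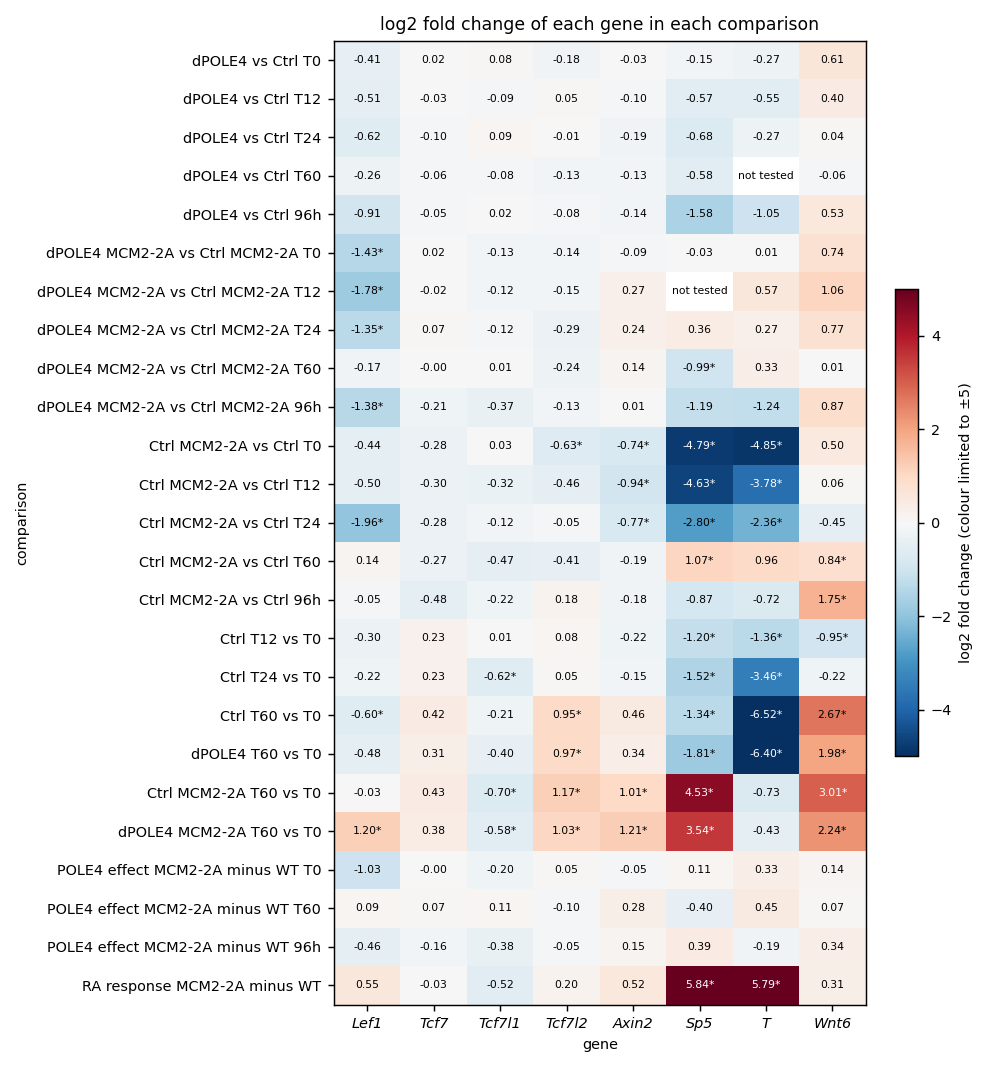
Log2 fold change (colour, red higher and blue lower, limited to 5 in size) of each of the 8 genes (x axis) in each of the 25 comparisons (y axis), with the value printed in each cell and a star where the gene was called by edgeR. Lef1 is negative in all rows of POLE4 depletion, nearest to 0 at T60 (-0.26 and -0.17), and between the lines Sp5 goes from -4.79 at T0 to 1.07 at T60.

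Among the other pathway genes in the MCM2-2A background, 0 of 83, 0 of 84, 4 of 90, 9 of 89 and 0 of 83 were called after POLE4 depletion at T0, T12, T24, T60 and 96 h, and 22, 24, 37, 42 and 8 had an unadjusted p under 0.05 in edgeR. DESeq2 called 0, 2, 4, 14 and 0. Among all features tested, 2457 of 18171, 3179 of 18077, 3888 of 18441, 4302 of 18473 and 2004 of 17421 had such a p. Of all features, DESeq2 called 73 of 14790, 115 of 14506, 206 of 14322, 503 of 15156 and 115 of 17329. At T24, 3 genes fell and 1 rose. The target gene Sp8 fell from 3.50 ± 0.676 to 1.32 ± 0.281 CPM (SD; log2 fold change -1.47, edgeR adjusted p = 0.00165), the receptor gene Fzd8 fell by 0.73 (adjusted p = 0.00319) and the corepressor gene Tle4 by 0.64 (adjusted p = 5.37e-05). The ligand gene Wnt3a rose from 3.11 ± 0.707 to 6.59 ± 1.34 CPM (1.06, adjusted p = 0.0059). Only Tle4 kept its call without each library in turn. At T24 the pathway count including the 8 genes was 5 and lay at 1 without replicate 2 of Ctrl MCM2-2A, and at 3 without replicate 1 or 3 of Ctrl MCM2-2A or replicate 1 of dPOLE4 MCM2-2A.

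At T60, 6 of the other pathway genes rose and 3 fell after POLE4 depletion in MCM2-2A cells. The receptor genes Fzd8 and Fzd2 fell by 0.86 (edgeR adjusted p = 0.00136) and 0.72 (adjusted p = 0.000499), and the target gene Myc, a growth regulator, fell by 0.65 (adjusted p = 0.00259). The ligand genes Wnt7b, Wnt3 and Wnt8a rose by 0.69, 0.69 and 0.70 (adjusted p = 0.00245, 0.00807 and 0.0059). Ascl2, a target gene, rose by 0.92 (adjusted p = 0.00782), and Tfcp2l1, a naive pluripotency factor restrained by Tcf7l1, rose from 111 ± 10.5 to 173 ± 27 CPM (0.63, adjusted p = 0.0047). Pluripotency markers moved with these values, with a summed level of 588 to 748 CPM in Ctrl MCM2-2A T60 and 701 to 895 CPM in dPOLE4 MCM2-2A T60, and their part in the result was not tested. Of the genes named here only Fzd2 kept its call in each fit that left out 1 library, while Fzd8, Myc, Tfcp2l1, Wnt7b, Wnt3, Wnt8a and Ascl2 lost it in 2, 3, 4, 2, 3, 5 and 5 of 6 such fits. The count including the 8 genes was 10, and it was 2 without replicate 3 of Ctrl MCM2-2A or replicate 2 of dPOLE4 MCM2-2A, 5 without replicate 2 of Ctrl MCM2-2A and 6 without replicate 1 of dPOLE4 MCM2-2A. With the block, which paired the libraries at T0 and 96 h, Wnt3 (0.76, adjusted p = 0.00985) and Wnt9a (0.81, adjusted p = 0.00441) rose at T0, and Wnt8a fell at 96 h (-0.65, adjusted p = 0.00652).

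A fit to the 4 groups of a time tested if POLE4 depletion acted differently in the 2 backgrounds. For Lef1 the difference of log2 fold changes, MCM2-2A minus WT, was -1.03 (SE 0.31) at T0, 0.09 (SE 0.21) at T60 and -0.46 (SE 0.22) at 96 h. It was 0.28 (SE 0.10) for Axin2 at T60 and -0.38 (SE 0.12) for Tcf7l1 at 96 h. None of the 8 genes was called by edgeR or DESeq2 at T0, T60 or 96 h, with 1 at an unadjusted p under 0.05 each time, and the percentage called among all features was 0.00526, 0.1 and 0. Of the other 86, 89 and 86 pathway genes 0 were called by edgeR, with 7, 22 and 2 at an unadjusted p under 0.05, and DESeq2 called 0, 2 and 0. Among all features tested, 1024 of 19007, 1922 of 18982 and 686 of 18555 had such a p. Of all features, DESeq2 called 10 of 15569, 81 of 16567 and 1 of 36148.

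The MCM2-2A line was compared with the WT line among DMSO-treated cells. Sp5 and T were the most unlike of the 8 genes. At T0, Sp5 was 17.9, 16.4 and 15.5 CPM in Ctrl and 0.79, 0.612 and 0.487 CPM in Ctrl MCM2-2A (fitted log2 change -4.79, SE 0.17), from 8 to 20 counts per MCM2-2A library. T was 40.5, 25.9 and 42.9 CPM in Ctrl and 2.00, 0.917 and 0.975 CPM in Ctrl MCM2-2A (-4.85, SE 0.26). Both genes were near 0 in the MCM2-2A line and well detected in the WT line. At T12 the differences were -4.63 (SE 0.29) for Sp5 and -3.78 (SE 0.23) for T, and at T24 -2.80 (SE 0.22) and -2.36 (SE 0.27). At T60 Sp5 had changed sides, with 8.51, 5.39 and 5.47 CPM in Ctrl and 13.5, 12.6 and 15.7 CPM in Ctrl MCM2-2A (1.07, SE 0.16). T was then at 0.365, 0.548 and 0.288 CPM in Ctrl and 0.427, 0.97 and 0.869 CPM in Ctrl MCM2-2A (0.96, SE 0.45), and these overlapped. In the 96 h experiment the gap was smaller, -0.87 (SE 0.27) for Sp5 and -0.72 (SE 0.24) for T. The other primitive streak and mesoderm markers (Mixl1, Eomes, Mesp1, Tbx6, Msgn1, Gsc) summed to 9.86 to 12 CPM in Ctrl T0 and 8.70 to 9.71 CPM in Ctrl MCM2-2A T0.

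Axin2 was lower in the MCM2-2A line until T24. At T0 it was 60.3, 46.5 and 53.2 CPM in Ctrl and 35.3, 31.6 and 30.1 CPM in Ctrl MCM2-2A (fitted log2 change -0.74, SE 0.09). At T12 it was 47.3, 48.2 and 41.9 CPM against 21.2, 23.0 and 27.6 CPM (-0.94, SE 0.10), and at T24 the difference was -0.77 (SE 0.08). No Ctrl MCM2-2A library reached a Ctrl library at these times. At T60 the difference was -0.19 (SE 0.06) and at 96 h -0.18 (SE 0.11). Axin2 and Tcf7 lie on chromosome 11, whose genes had a median log2 fold change between the lines of -0.48 at T0, -0.51 at T12, -0.49 at T24, -0.55 at T60 and -0.51 at 96 h. Within 2 Mb of Axin2 the median was -0.54, -0.54, -0.46, -0.47 and -0.51 at these times. Tcf7 differed by -0.28, -0.30, -0.28, -0.27 and -0.48, less than the genes around it, whose medians were -0.46, -0.42, -0.46, -0.54 and -0.52. The part of the chromosome in these differences was not tested. On the chromosomes of the other 6 genes the medians lay between -0.09 and 0.14. Within 2 Mb of these 6 genes they lay between -0.28 (Sp5 at 96 h) and 0.20 (Wnt6 at 96 h). Around Sp5 the window median was -0.15 at T0, and around Wnt6 it was 0.19 at T60. The part of these neighbours was not tested either.

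Lef1 differed most between the lines at T24, with 19.8, 18.7 and 18.0 CPM in Ctrl and 4.33, 5.47 and 4.24 CPM in Ctrl MCM2-2A (fitted log2 change -1.96, SE 0.11). At T0 and T12 the difference was -0.44 (SE 0.11) and -0.50 (SE 0.10), in groups that did not overlap, and at T60 and 96 h it was 0.14 (SE 0.13) and -0.05 (SE 0.14). Tcf7l2 was 18.1, 19.5 and 18.3 CPM in Ctrl T0 and 10.9, 14.5 and 11.6 CPM in Ctrl MCM2-2A T0 (-0.63, SE 0.11), and this call was lost without replicate 1 or 3 of Ctrl MCM2-2A (-0.55 and -0.57). Tcf7l1 differed by -0.47 (SE 0.08) at T60 and by 0.03 (SE 0.08) at T0. Wnt6 was higher in the MCM2-2A line at T60, with 36.7, 22.6 and 28.1 CPM in Ctrl and 42.7, 59.9 and 53.6 CPM in Ctrl MCM2-2A (0.84, SE 0.14). At 96 h it was 3.30, 3.06 and 2.67 CPM against 9.01, 10.6 and 10.2 CPM (1.75, SE 0.17). Of the 8 genes, 4, 3, 4, 2 and 1 were called at T0, T12, T24, T60 and 96 h, beside 18.9%, 14.5%, 17.3%, 16.9% and 15.7% of all features.

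Of the other pathway genes, 29 of 83 were called between the lines at T0, with 11 higher and 18 lower in Ctrl MCM2-2A and a median log2 fold change of -0.07 (all features -0.02). Ligand and secretion genes were called lower in 7 and higher in 2 of 16 cases. Wnt5a fell from 6.85 ± 1.31 to 0.815 ± 0.147 CPM (SD; -3.07, edgeR adjusted p = 6.69e-07), Wnt3 from 17.1 ± 2.04 to 2.30 ± 0.225 CPM (-2.88, adjusted p = 5.39e-08), Wls, which carries Wnt proteins to the cell surface, by 2.18 (adjusted p = 1.72e-06) and Rspo3, a secreted enhancer of Wnt signalling, by 2.14 (adjusted p = 0.000618). Wnt7b rose by 1.24 (adjusted p = 8.25e-07), the inhibitor gene Shisa2 by 1.23 (adjusted p = 0.000104), and the receptor genes Lgr5 and Lgr6 by 1.46 (adjusted p = 0.0065) and 1.87 (adjusted p = 4.49e-05). The call of Lgr5 was lost in 4 of 6 fits that left out a library. Chromosomes 14 and 15, whose genes had medians of 0.24 and 0.56 between the lines at T0, carry Wnt5a, Fzd3 and Shisa2 and Wnt7b and Myc, and chromosome 11 carries Wnt3, Fzd2, Notum, Znrf3 and Rnf43. These 3 chromosomes held 11 of the 33 pathway genes called at T0, members included, and the other chromosomes, with a median of 0.00, held 22. Of the genes tested, 6 of 11 were called on chromosome 11, 3 of 3 on 14, 2 of 3 on 15 and 22 of 74 elsewhere. The part of the chromosomes in these calls was not tested.

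During RA the differences between the lines covered 20 of 82 other pathway genes at T12 (6 higher and 14 lower in Ctrl MCM2-2A), 25 of 90 at T24 (11 and 14) and 33 of 86 at T60 (20 and 13). Their median log2 fold changes were -0.115, 0.03 and 0.08, beside 0.00, 0.00 and 0.01 for all features. At T12, Wnt5a, Wnt3 and Wls fell by 2.70, 1.92 and 1.75 (edgeR adjusted p = 0.000148, 7.58e-06 and 2.76e-05), while the inhibitor gene Sfrp5 rose by 0.88 (adjusted p = 0.000924), the receptor gene Fzd3 by 1.16 (adjusted p = 1.12e-05), Lgr6 by 1.21 (adjusted p = 0.000516) and Lgr5 by 1.74 (adjusted p = 0.0074), a call lost in 6 of 6 fits without a library. The caudal homeobox gene Cdx4 had 3 counts in all of Ctrl MCM2-2A T12 and 76 in Ctrl T12, where its level was 19.6 times higher (exact 95% counting interval 6.47 to 97.4).

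At T24, Wnt5a, Wnt7a, Notum, which encodes an enzyme that inactivates Wnt ligands, and Cdx4 had log2 fold changes, all lower in Ctrl MCM2-2A, of -2.56, -1.83, -1.57 and -1.44 (edgeR adjusted p = 3.57e-08, 4.1e-05, 1.76e-06 and 0.000976). Mixl1, Lgr6, the DKK family gene Dkk3 and the R-spondin gene Rspo4 were higher by 1.07, 1.08, 1.17 and 1.52 (adjusted p = 0.00445, 9.16e-05, 1.49e-06 and 0.000413), and the call of Mixl1 was lost in 3 of 6 fits without a library. At T60, Wnt5a, Wnt2b, Wnt7a and the secreted inhibitor gene Sfrp1 were lower (-1.73, -1.63, -1.46 and -1.37, adjusted p = 2.3e-06, 6.01e-05, 2.75e-05 and 1.75e-07). Higher at T60 were Wnt3a (1.65, adjusted p = 0.00262, lost in 3 of 6 such fits), Esrrb (1.67, adjusted p = 6.71e-08), Nanog (2.02, adjusted p = 1.06e-08) and Cdx1 (2.14, adjusted p = 2.86e-08). Esrrb and Nanog are naive pluripotency genes restrained by Tcf7l1, and 3 of the 4 genes listed for that restraint rose. Pluripotency markers summed to 256 to 337 CPM in Ctrl T60 and 588 to 748 CPM in Ctrl MCM2-2A T60, Esrrb and Nanog included, and their part was not tested.

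After 96 h, 18 of 83 other pathway genes were called between the lines, 15 higher and 3 lower in Ctrl MCM2-2A, with a median of 0.08 beside -0.01 for all features. The genes that fell were Fzd2 (-1.27, edgeR adjusted p = 4.79e-05), Notum (-1.23, adjusted p = 3.82e-06) and Znrf3, a remover of Wnt receptors (-0.61, adjusted p = 0.000123), and each of these lies on chromosome 11. Those that rose the most were Wnt8a (1.69, adjusted p = 0.000248), Lgr6 (1.80, adjusted p = 5.32e-05), Lgr5 (1.87, adjusted p = 0.00202) and Cdx1 (1.96, adjusted p = 0.000134). Fzd10 rose by 0.59 (adjusted p = 0.00204), just past the size needed. Leaving out a library ended the call of Fzd10 in 2, of Lgr5 in 3 and of Znrf3 in 1 of 6 fits. Here the replicate numbers paired the libraries, and the blocked fit also called Wnt5a (-0.95, adjusted p = 0.00449), Fzd6 (0.68, adjusted p = 0.000659) and Dkk3 (0.79, adjusted p = 0.00447).

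RA differentiation was followed in Ctrl cells from T0, and all comparisons within a line share their T0 libraries. T was lower at each later time. It went from 40.5, 25.9 and 42.9 CPM at T0 to 16.5, 12.9 and 12.5 CPM at T12, 4.21, 2.58 and 2.96 CPM at T24 and 0.365, 0.548 and 0.288 CPM at T60. The log2 fold changes against T0 were -1.36 (SE 0.17), -3.46 (SE 0.19) and -6.52 (SE 0.29), the last from 3 to 6 counts per T60 library. Sp5 was lower by T12, at 8.27, 7.39 and 5.74 CPM (-1.20, SE 0.13), and stayed there at T24 (-1.52, SE 0.13) and T60 (-1.34, SE 0.16). Wnt6 was first lower, with 2.03, 2.16 and 2.96 CPM at T12 after 5.95, 3.19 and 4.55 CPM at T0 (-0.95, SE 0.24), and was then higher, with 36.7, 22.6 and 28.1 CPM at T60 (2.67, SE 0.20). The T12 call of Wnt6 was lost in 4 of 6 fits without a library, namely without replicate 1 or 3 of T0 (-0.72 and -0.96) or replicate 1 or 2 of T12 (-0.83 and -0.91).

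Among the factors, Tcf7l2 was higher at Ctrl T60, with 34.1, 37.0 and 38.6 CPM after 18.1, 19.5 and 18.3 CPM at T0 (log2 fold change 0.95, SE 0.08). Tcf7l1 was lower at T24, with 78.2, 88.6 and 79.6 CPM after 114, 127 and 140 CPM (-0.62, SE 0.07), and overlapped T0 at T60 (-0.21, SE 0.08). The T24 call was lost without replicate 3 of T0 (-0.56). Tcf7 was 0.42 (SE 0.07) higher at T60 and Axin2 0.46 (SE 0.09) higher, both in groups that did not overlap. Lef1 was lower at T60, with 17.6, 14.1 and 11.7 CPM after 25.3, 19.6 and 21.2 CPM (-0.60, SE 0.14), a call lost without replicate 1 of T0 (-0.49) or replicate 2 (-0.57) or 3 (-0.47) of T60. In all, 3, 3 and 5 of the 8 genes were called at T12, T24 and T60 in Ctrl, beside 11.3%, 21.8% and 50.6% of all features.

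In dPOLE4, 4 of the 8 genes were called at T60 against T0 beside 48.1% of features, and the difference from the response of Ctrl was not tested. Sp5 (log2 fold change -1.81, SE 0.15), T (-6.40, SE 0.29), Tcf7l2 (0.97, SE 0.07) and Wnt6 (1.98, SE 0.13) were the genes called. In Ctrl MCM2-2A, 5 of 8 were called beside 47.5% of features. Sp5 there went from 0.79, 0.612 and 0.487 CPM at T0 to 13.5, 12.6 and 15.7 CPM at T60 (4.53, SE 0.18), and Axin2 from 35.3, 31.6 and 30.1 CPM to 64.1, 65.2 and 64.3 CPM (1.01, SE 0.07). Wnt6 (3.01, SE 0.14), Tcf7l2 (1.17, SE 0.10) and Tcf7l1 (-0.70, SE 0.08) completed the called genes. Endoderm markers (Gata6, Gata4, Sox17, Foxa2, Dab2) summed to 12.4 to 22.7 CPM in Ctrl T0 and 280 to 345 CPM in Ctrl T60, and to 34.0 to 44.1 CPM and 500 to 557 CPM in Ctrl MCM2-2A, as Wnt6 was higher at T60, and their part was not tested.

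In dPOLE4 MCM2-2A, 6 of 8 genes were called at T60 against T0 beside 42.2% of features. Lef1, which started low, went from 8.12, 5.53 and 4.91 CPM to 13.1, 15.5 and 14 CPM (log2 fold change 1.20, SE 0.18). Sp5 reached 7.44, 6.91 and 6.60 CPM from 0.876, 0.503 and 0.478 CPM (3.54, SE 0.23). Axin2 (1.21, SE 0.10), Tcf7l2 (1.03, SE 0.12), Wnt6 (2.24, SE 0.14) and Tcf7l1 (-0.58, SE 0.09) were also called, the last at the edge of the rule, so that 5 of 6 fits without a library lost it.

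Of the other pathway genes tested in Ctrl, 29 of 82 were called at T12 (17 higher and 12 lower), 45 of 85 at T24 (29 and 16) and 63 of 87 at T60 (44 and 19), beside 11.3%, 21.8% and 50.6% of all features. Their median log2 fold changes were 0.14, 0.25 and 0.65, beside 0.01, 0.00 and -0.01 for all features. By role, 13 of 18 receptor genes rose and 3 fell at Ctrl T60, 10 of 19 ligand and secretion genes rose and 2 fell, 9 of 16 inhibitor genes rose and 3 fell, and 6 of 10 nuclear cofactor genes rose and 2 fell. Of the 10 genes of the relay and destruction complex, 3 rose and 0 fell at T60. The 10 other target genes split into 3 that rose and 5 that fell, and 4 of 4 genes restrained by Tcf7l1 fell. In dPOLE4, 63 of 88 were called at T60 (42 higher and 21 lower), in Ctrl MCM2-2A 61 of 88 (47 and 14) and in dPOLE4 MCM2-2A 60 of 88 (45 and 15), with medians of 0.56, 0.86 and 0.71 beside -0.01, 0.00 and -0.03.

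The pathway genes that moved the most in Ctrl by T12 were Cdx1, a homeobox gene induced by RA and Wnt, which rose from 2.74 ± 0.845 to 46.4 ± 7.05 CPM (SD; log2 fold change 4.09, edgeR adjusted p = 8.65e-09), Wnt3a (2.03, adjusted p = 8.6e-05), the corepressor gene Tle2 (1.73, adjusted p = 2.41e-06) and Wnt8a (1.57, adjusted p = 1.42e-06). Sfrp4 (-1.61, adjusted p = 2.33e-05), the receptor gene Fzd5 (-1.55, adjusted p = 4.26e-09), Esrrb (-1.22, adjusted p = 2.45e-08) and Notum (-1.18, adjusted p = 3.63e-05) fell. The last 4 genes also fell the most at T24, with Esrrb at -2.25 (adjusted p = 7.95e-13), Fzd5 at -2.24 (adjusted p = 1.1e-13), Notum at -2.12 (adjusted p = 2.3e-11) and Sfrp4 at -2.08 (adjusted p = 4.94e-07). At T24 Cdx1 rose by 4.63 (adjusted p = 3.81e-12), Rspo4 by 3.29 (adjusted p = 0.00029) and Sfrp5 by 2.90 (adjusted p = 7.46e-11). Wnt2, with 2 counts in all of Ctrl T0 and 90 in Ctrl T24, was 34.8 times higher at T24 (exact 95% counting interval 9.36 to 292).

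At Ctrl T60, Esrrb had fallen from 444 ± 21 to 15.3 ± 0.844 CPM (SD; log2 fold change -4.89, edgeR adjusted p = 1.15e-15), Nanog from 460 ± 29.2 to 19.7 ± 1.83 CPM (-4.56, adjusted p = 3.04e-15) and Sfrp4 by 4.86 (adjusted p = 7.56e-09). Fzd4 rose from 2.59 ± 0.333 to 58.2 ± 6.52 CPM (4.46, adjusted p = 1.53e-13), and the secreted inhibitor genes Dkk1 and Dkk2 rose by 4.31 (adjusted p = 7.05e-10) and 4.77 (adjusted p = 7.87e-07). Wnt2 was 39.9 times higher than at T0 (counting interval 10.5 to 338), and Cdx4, with 2 counts at T60, was 21.4 times higher at T0 (5.70 to 180). In dPOLE4, Sfrp4 (-5.10, adjusted p = 6.92e-09), Esrrb (-4.84, adjusted p = 1.76e-14) and Nanog (-4.16, adjusted p = 3.47e-14) fell and Wnt10b (4.12, adjusted p = 3.65e-09), Dkk2 (4.23, adjusted p = 3.93e-07) and Fzd4 (4.61, adjusted p = 1.72e-13) rose. There Wnt2 had 3 counts at T0 and was 52.6 times higher at T60 (17.5 to 259), and Cdx4 had 1 count at T60 and was 46.3 times higher at T0 (8.03 to 1850).

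In Ctrl MCM2-2A at T60, Wls rose from 2.74 ± 0.381 to 65.8 ± 7.66 CPM (SD; log2 fold change 4.66, edgeR adjusted p = 7.81e-12) and Wnt10b by 4.53 (adjusted p = 1.42e-09) and Wnt2 by 5.61 (adjusted p = 8.95e-07). Dkk2 had 0 counts at T0 and 321 at T60 and was at least 116-fold higher, set against 3 counts over the T0 group. Sfrp4 (-3.77, adjusted p = 5.45e-08), Esrrb (-3.06, adjusted p = 5.42e-11), Fzd5 (-3.05, adjusted p = 1.47e-11) and the naive pluripotency gene Klf2 (-2.68, adjusted p = 5.2e-09) fell. In dPOLE4 MCM2-2A, Sfrp4 (-3.73, adjusted p = 1.13e-06), Notum (-2.48, adjusted p = 2.71e-06), Esrrb (-2.35, adjusted p = 1.41e-08) and Fzd5 (-2.33, adjusted p = 1.95e-09) fell, and Dkk1 (4.32, adjusted p = 1.45e-08) and Cdx1 (4.35, adjusted p = 2.38e-10) rose. Dkk2, with 2 counts at T0, was 136 times higher at T60 (counting interval 37.3 to 1130), and Wnt2, with 0 counts at T0 and 187 at T60, was at least 81.7-fold higher, set against the same floor. These intervals and floors cover counting error only.

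The difference of the T60 response between Ctrl MCM2-2A and Ctrl was fitted with the 12 libraries of both lines. For Sp5 it was 5.84 (SE 0.26) and for T 5.79 (SE 0.61), both as log2 differences with MCM2-2A above WT, and these were the 2 genes called of the 8, beside 9.1% of all features. T was within 2 CPM in every Ctrl MCM2-2A library of both times (-0.73, SE 0.38), and in Ctrl its mean went from 36.5 to 0.40 CPM (-6.52, SE 0.29). Axin2 (0.52, SE 0.12), Lef1 (0.55, SE 0.19) and Tcf7l1 (-0.52, SE 0.12) differed by less, and Tcf7 (-0.03, SE 0.10), Tcf7l2 (0.20, SE 0.13) and Wnt6 (0.31, SE 0.28) by less again. Among the other pathway genes 26 of 89 were called, 19 with a more positive and 7 with a more negative response in MCM2-2A, and the median was 0.02 beside -0.01. Of 21 ligand and secretion genes 7 had a more positive response and 0 a more negative one, and of the 10 other target genes 6 and 1.

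Of the other pathway genes named here, Wnt3 differed the most, by 3.09 (edgeR adjusted p = 1.81e-08). It went from 2.30 ± 0.225 to 7.83 ± 1.17 CPM in Ctrl MCM2-2A (SD) and started at 17.1 ± 2.04 CPM in Ctrl T0. Naming here required that T0 and T60 of Ctrl MCM2-2A did not overlap, so called genes that changed only in Ctrl could be left out. The trophectoderm and caudal factor gene Cdx2 (2.76, adjusted p = 6.54e-06), the primitive streak gene Mixl1 (2.67, adjusted p = 0.000218) and Wnt8a (2.25, adjusted p = 4.47e-06) also had a more positive response in MCM2-2A. Sfrp1 (-2.17, adjusted p = 1.5e-08), Fzd4 (-2.07, adjusted p = 2.56e-07), the feedback inhibitor gene Nkd1 (-1.23, adjusted p = 0.00383) and Ascl2 (-1.20, adjusted p = 0.00158) had a more negative one. The call of Nkd1 was lost in 5 of 12 fits without a library.

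**Figure D4:**
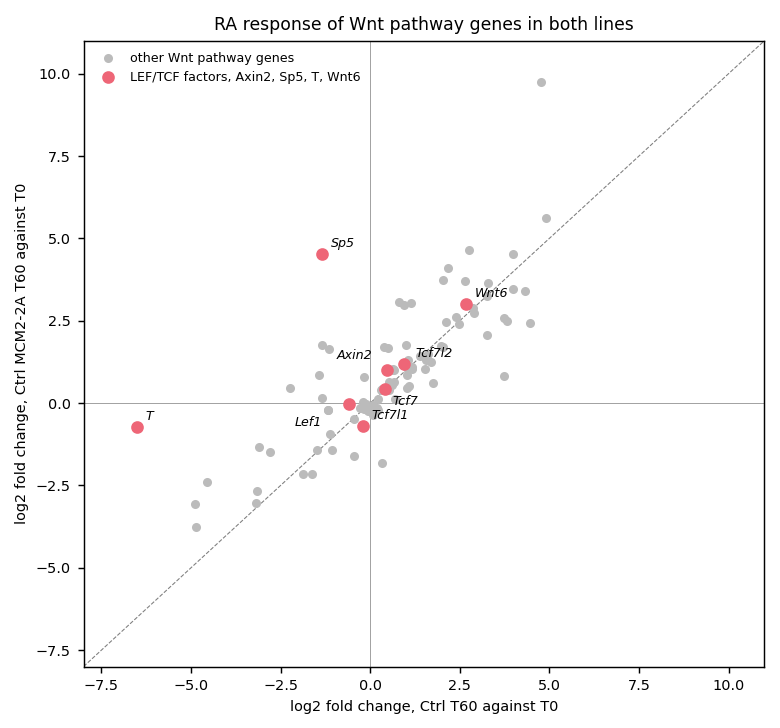
Log2 fold change from T0 to T60 of RA in Ctrl (x axis) and in Ctrl MCM2-2A (y axis) for the 94 pathway genes tested in both, with the 8 genes described here in red and labelled and 86 others in grey; the dashed line marks equal responses. Sp5 (-1.34 and 4.53) and T (-6.52 and -0.73) lie far above the line, and Wnt6 (2.67 and 3.01) lies close to it. The topmost grey point is Dkk2, with 0 counts in Ctrl MCM2-2A T0, whose fitted value depends on the default prior count of edgeR's fit.

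Genes with a level pattern most like each member were taken by Pearson correlation of group means of log2 CPM over the 16 groups of the 24 h and RA experiment, among 21330 features. Groups share lines, treatments and times, so the correlations are a description. For Lef1 they were Gm16505 (r = 0.83), Gm10060 (0.83) and Myadm (0.83), the lowest such values of the 8 genes. For Tcf7 they were Cldnd1 (0.98), Itga3 (0.97) and Arl10 (0.97), for Tcf7l1 Pak4 (0.97), Phf20 (0.97) and Raly (0.94), and for Tcf7l2 Fut11 (0.98), Fzd2 (0.98) and Stard13 (0.98). Among the targets, Krt19 (0.98) and Ahnak (0.98) are given for Axin2, Xkr4 (0.96), Gbp2 (0.96) and Igsf11 (0.96) for Sp5, and Fgf8 (0.97), Gm47144 (0.96) and Snhg15 (0.96) for T. Plaur (0.98), Dlg5 (0.98) and Pcdhgc5 (0.98) were most like Wnt6. Among the 8 genes themselves the highest correlation was 0.92 between Tcf7 and Tcf7l2, followed by 0.86 between Axin2 and Sp5 and 0.84 between Axin2 and Tcf7l2, and the lowest was -0.47 between T and Wnt6.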

How the data were processed

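Strand-specific, rRNA-depleted RNA libraries were sequenced from 60 samples in 20 groups of 3. The authors trimmed reads with cutadapt 4.2, aligned them to mm10 with STAR and deposited raw counts per GENCODE gene and repeat subfamily, made with TEcount, in a table for the 24 h and RA experiment (48 libraries) and one for 96 h (12 libraries). The strand setting of the counting is not given in the sources used here. A protocol label names other RA times than the sample titles, and the titles were followed. The tables were normalized and tested separately.

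Of 56633 features, 55487 were genes and 1146 repeats, and 55227 genes matched the annotation. In each comparison, features of the groups concerned passed edgeR's filterByExpr at a count of 10 and a total of 15. They were scaled by TMM and fitted with the quasi-likelihood test of edgeR 4.0.16 (limma 3.58.1, R 4.3.3), with Benjamini-Hochberg adjustment over all features. The fits kept edgeR's default prior count, and a prior count of 2 was used only for log2 CPM. The scripts were tested on simulated counts. No pair of libraries was identical (0 pairs). All 8 genes and the 95 pathway genes were chosen with earlier results of these data known. Of the pathway genes, those called with groups that did not overlap were named, at most the 4 highest and the 4 lowest fold changes per comparison, and genes gained in a blocked fit were named after their values were seen. One marker list and one of the genes most like Axin2 are not reported here.

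Libraries of the same replicate number were taken as paired where the correlation of their deviations from the group means was over 0.1 for every number. That held for dPOLE4 against Ctrl at T0 (0.234, 0.160 and 0.111) and 96 h (0.382, 0.190 and 0.194), for dPOLE4 MCM2-2A against Ctrl MCM2-2A at T0 (0.354, 0.142 and 0.298) and 96 h (0.367, 0.314 and 0.125), and between the lines at 96 h (0.203, 0.212 and 0.114). Alternatives were DESeq2 1.42.0, its size factors in edgeR, no filter, the replicate block, CPM by total counts, Spearman correlation, and each library left out.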

Additional observations from a re-analysis of the deposited data

Results flagged for a closer look

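The RA response from T0 to T60 differed between Ctrl MCM2-2A and Ctrl by an interaction test in edgeR for 8 named pathway genes. The log2 difference, MCM2-2A minus WT, was 3.09 for Wnt3, 2.76 for Cdx2, 2.67 for Mixl1, 2.25 for Wnt8a, -1.20 for Ascl2, -1.23 for Nkd1, -2.07 for Fzd4 and -2.17 for Sfrp1. Sp5 was lower at T60 in every WT library and higher in every MCM2-2A library than at T0, and the log2 ratios of mean CPM differed by 5.83. T at T12 was lower in every dPOLE4 library than in Ctrl and higher in every dPOLE4 MCM2-2A library than in Ctrl MCM2-2A. The log2 ratios of mean CPM differed by 1.09, and for T this difference was not tested. In the MCM2-2A line T was near the floor, at 0.629 to 1.32 CPM in Ctrl MCM2-2A and 1.47 to 1.59 CPM in dPOLE4 MCM2-2A. In the WT line it was 12.5 to 16.5 CPM in Ctrl and 8.22 to 11.3 CPM in dPOLE4. For Sp5 these values chose the gene, so that the fitted difference given earlier is a description and the difference was not tested independently.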

How the results depend on the processing

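No called value of the 8 genes or of the pathway genes named by the main rule reversed its direction under the alternatives run. Directions of uncalled values of the 8 genes, many of them near 0, and of genes gained in a blocked fit were not checked. The number of the 103 pathway genes called, the 8 included, moved by over 1.5 times as follows. For dPOLE4 against Ctrl, where edgeR called 0 throughout, no filter gave 1 at T12, 3 at T24, 2 at T60 and 4 at 96 h, DESeq2 gave 2 at T24, 1 at T60 and 2 at 96 h, the replicate block gave 1 at T24, 1 at T60 and 4 at 96 h, and leaving out a library gave 0 to 1 at T60, with 1 without replicate 1 or 3 of Ctrl. For dPOLE4 MCM2-2A against Ctrl MCM2-2A, with 1, 1, 5, 10 and 1 called, no filter gave 3 at T0, 8 at T12, 16 at T60 and 4 at 96 h, DESeq2 gave 2 at T0, 4 at T12 and 2 at 96 h, and the block gave 4 at T0 and 5 at 96 h. Leaving out a library gave 0 to 1 at T0, 1 to 2 at T12 (2 without replicate 1 of dPOLE4 MCM2-2A), 1 to 5 at T24, 2 to 14 at T60 and 0 to 1 at 96 h. Between the lines at T12 the block gave 15 in place of 23. For the difference of POLE4 effects, with 0 called, no filter gave 1 at T0 and 4 at T60, DESeq2 gave 2 at T60, and leaving out a library gave 0 to 1 at T60, with 1 without replicate 1 of Ctrl, replicate 2 of Ctrl MCM2-2A or replicate 1 or 3 of dPOLE4 MCM2-2A. The cause was not tested. DESeq2 size factors in edgeR left all 25 counts within that limit.

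Of 108 named fold changes, 4 lost their call with DESeq2, 1 with no filter, 2 with the block and 0 with DESeq2 size factors. In fits without a library, 61 of these calls were lost and 635 kept. Between the lines, Lgr5 was lost at T0 and T12 with DESeq2 and with the block, Mixl1 at T24 with DESeq2, and Fzd10 at 96 h with DESeq2 (0.57) and with no filter (0.56). The fold changes of the 8 genes moved by less than the replicate spread under DESeq2, its size factors, no filter and the block (198 values each), and 10 moved without a library. CPM by total counts moved 14 of 160 group levels and 0 of 80 shares. With Spearman correlation, 0 to 2 of the 3 most alike genes were shared. Where the numbers did not pair the libraries, the replicate block added the calls of Lef1 at T24 in dPOLE4 (-0.62) and of Wnt6 at T24 in dPOLE4 MCM2-2A (0.85).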
